A study of Homo sapiens with 2 samples.

Results

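The expression of 8 genes that encode enzymes of heme synthesis, ALAS1, ALAS2, ALAD, UROS, UROD, CPOX, PPOX and FECH, was examined in HEL cells treated with L1 or with vehicle. The members were chosen by gene name, and each of the 8 was present in the count table of 61806 Ensembl genes and in the FPKM tables of 13924 genes. HEL is a human erythroleukemia cell line, listed as wild type in genotype, and L1 is a derivative of 3,3′-diindolylmethane. One group received L1 at 1 µM and the other 0.5% DMSO, both for 24 h, and 1 library of mRNA captured on beads was sequenced for each, so both groups rest on a single culture of a single line as far as the labels say. The labels do not give the DMSO content of the L1 culture. The study examined L1 as an antileukemic compound that acts on stress of the endoplasmic reticulum and on erythroid regulators, and the question here was whether the enzymes that make heme differed between the treated and the control cells.

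Heme is built from glycine and succinyl-CoA by a chain of enzymes that starts in the mitochondrion, passes through the cytosol and ends in the mitochondrion again, where iron is inserted into the porphyrin ring. ALAS1 and ALAS2 encode alternative forms of the first and rate-limiting enzyme, ALAS1 in nearly every cell and ALAS2 in erythroid cells, where large amounts of heme are made for hemoglobin. The first step in most cells is held down by heme itself through ALAS1, while ALAS2 is driven by the erythroid factor GATA1 and its mRNA is translated when iron is at hand. The 8 genes do not cover every step of the pathway.

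The DMSO library held 32556872 counts and the L1 library 27135647. No condition was replicated. No test was therefore run, and differences between cultures and an effect of L1 cannot be told apart. Levels between genes are given as FPKM, which divides by gene length, and differences between the libraries as the log2 ratio of L1 over DMSO after scaling the counts by edgeR's TMM method. Each value has a 95% interval that covers counting error only (exact Clopper-Pearson for ratios and shares, exact Poisson for levels). The erythroid label was checked against 10 markers, of which 8 reached 10 counts in 1 library or both, while AHSP had 0 counts in both libraries, which allows up to 3 counts in each. Of 10 megakaryocyte markers 9 passed the same minimum, and of 10 lymphoid and monocyte markers 3 did, with a summed level of 6.56 TMM-scaled CPM in DMSO and 4.78 in L1.

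Among the 8 enzymes, ALAS2 stood out in the L1 library at 1.96 times its level in the DMSO library, CPOX was 1.19 times as high, and UROD was 0.791 times as high. The other 5 enzymes had log2 ratios between -0.17 and 0.04. The median log2 ratio of the 8 enzymes was -0.06, against -0.0040 over the 18123 genes kept, those that reached 10 counts in 1 library or both. None of the 8 passed the 2-fold threshold in either direction, while 7.12% of the 18123 genes passed it upward and 4.83% downward. ALAS2 lay just under that threshold, and it passed with scaling by total counts (log2 ratio 1.02) or by the upper quartile (1.01). At 1.5-fold 1 member was higher and 0 were lower, beside 13.8% and 11.4% of all genes kept. A gene was kept with as few as 10 counts, whereas each enzyme had 419 or more, so these percentages are not a matched background. Among the 12365 genes that reached 100 counts in 1 library, 387 passed the 2-fold threshold upward and 361 downward. The 1.5-fold rule was not applied to those genes, and nothing is read from 1 of 8. The whole counting interval lay above 0 for 2 members and below 0 for 3, beside 26.8% and 28.6% of all genes kept, and nothing is read from these counts of members. These numbers of members became 3 and 1 with total counts, 2 and 1 with upper quartile factors, and 2 and 4 with DESeq2 size factors.

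**Figure D1:**
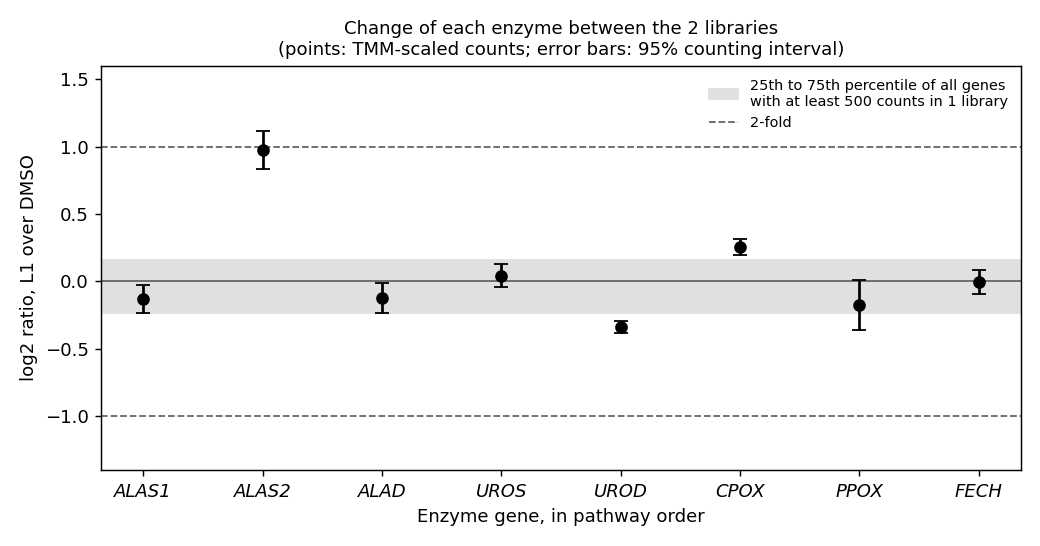
The log2 ratio of L1 over DMSO (y axis) is plotted for each enzyme in pathway order (x axis), with error bars for the 95% counting interval of the 2 libraries, a grey band for the 25th to 75th percentile of genes with at least 500 counts in 1 library, and dashed lines at 2-fold. ALAS2 sits at 0.97 near the upper dashed line, CPOX at 0.26 above the band and UROD at -0.34 below it.

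The promoters of the enzymes that differed most between the libraries, ALAS2, CPOX and UROD, and that of ALAS1, the alternative form of ALAS2, are shown first, because GATA1 and its partners act through short elements near such starts. Each sequence holds the 250 bases before the start that RefSeq lists (GRCh38.p14), written 5′ to 3′ on the strand of the gene. Capitals mark GATA elements, searched on both strands as the letters GATA with either A or T before them and either A or G after them. The capitals TTATCT thus mark an element on the opposite strand.
ALAS2 (chrX:55030978-55031227, minus strand): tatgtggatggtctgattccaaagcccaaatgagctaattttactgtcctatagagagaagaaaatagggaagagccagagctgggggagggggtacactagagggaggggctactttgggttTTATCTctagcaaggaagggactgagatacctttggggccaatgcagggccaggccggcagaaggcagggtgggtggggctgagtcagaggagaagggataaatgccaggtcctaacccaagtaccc
CPOX (chr3:98593612-98593861, minus strand): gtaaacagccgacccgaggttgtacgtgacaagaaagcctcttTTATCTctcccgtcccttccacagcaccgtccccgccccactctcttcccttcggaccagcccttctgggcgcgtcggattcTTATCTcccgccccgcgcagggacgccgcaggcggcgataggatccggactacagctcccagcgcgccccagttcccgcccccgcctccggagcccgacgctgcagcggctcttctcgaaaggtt
ALAS1 (chr3:52197833-52198082, plus strand): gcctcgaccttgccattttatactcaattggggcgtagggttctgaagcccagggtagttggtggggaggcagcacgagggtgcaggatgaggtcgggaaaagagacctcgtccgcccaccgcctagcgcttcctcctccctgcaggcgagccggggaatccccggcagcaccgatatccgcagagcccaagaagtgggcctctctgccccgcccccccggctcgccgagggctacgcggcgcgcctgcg
UROD (chr1:45012004-45012253, plus strand): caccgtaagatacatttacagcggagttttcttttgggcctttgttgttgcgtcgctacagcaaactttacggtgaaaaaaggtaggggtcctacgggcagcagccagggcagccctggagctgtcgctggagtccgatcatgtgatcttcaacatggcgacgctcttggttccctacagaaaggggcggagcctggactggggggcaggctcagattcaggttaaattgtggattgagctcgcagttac

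The ALAS2 window held 1 GATA element, which began 127 bases before the start, and the CPOX window held 2, which began 207 and 125 bases before it. The windows of ALAS1, UROD and FECH held 0. ALAD and PPOX each have 2 listed starts, and in both genes the second window held 1 element, beginning 68 bases before the start in ALAD and 63 in PPOX, while the first held 0. UROS has no entry in the promoter table. GATA elements by this search occurred in 22.3% of the 35116 windows of all genes, so a match is common and says nothing about binding. The letters TGANTCA, as bound by NFE2 and AP-1, were found once, in the ALAS2 window, and occurred in 6.57% of all windows. CACCC, the core of KLF1 elements, was found in the windows of ALAS1, ALAS2, ALAD and PPOX and in 54.7% of all windows. GCGTG, the core bound by the aryl hydrocarbon receptor, was found in those of ALAD, PPOX and FECH, with 4 matches in FECH, and in 32.2% of all windows.

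ALAS2 (ENSG00000158578, chromosome X from 55009055 to 55031064, minus strand, coordinates of GENCODE release 29 on GRCh38 for this and the following genes) had 655 counts with DMSO and 1108 with L1. Its FPKM was 10.1 in DMSO (95% interval 9.31 to 10.9) and 19.7 in L1 (18.6 to 20.9), so the level intervals of the libraries did not overlap. The log2 ratio was 0.97, with an interval from 0.83 to 1.11. By FPKM, ALAS2 went from rank 4474 of the 13924 genes in DMSO to rank 2336 in L1. Of all 18123 genes kept, 1350 (7.45%) had a higher log2 ratio than ALAS2, and of the 8828 genes with at least 500 counts in 1 library, 204 (2.31%) did. The exons of ALAS2 overlap those of APEX2 on the opposite strand by 3 bases, and APEX2 had a log2 ratio of -0.50.

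ALAS1 (ENSG00000023330, chromosome 3 from 52198086 to 52214327), the form of the enzyme found in most cells, had 1685 counts with DMSO and 1329 with L1. Its FPKM was 20.9 in DMSO and 19.1 in L1, and the log2 ratio was -0.13 (95% interval -0.23 to -0.02). With total counts (-0.18 to 0.02) and with upper quartile factors (-0.20 to 0.01) the interval included 0. ALAS1 and ALAS2 are paralogs, but their annotated transcripts had 0 words of 31 bases in common, and neither shared any such word with another gene.

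The share of the first step that each form supplied at the mRNA level could be read within each library, where it does not depend on the scaling between them. ALAS2 made up 32.5% of the summed FPKM of ALAS1 and ALAS2 in DMSO (95% interval 30.5 to 34.5) and 50.8% in L1 (48.8 to 52.8). By FPKM, ALAS2 was thus at 0.482 times the level of ALAS1 in the control cells and at 1.03 times in the treated cells. The ratio of ALAS2 to ALAS1 counts was 2.14 times as high in L1 as in DMSO, with an exact conditional interval from 1.90 to 2.42. Without division by length the share of ALAS2 was 28.0% in DMSO and 45.5% in L1. Per kilobase of all annotated exons it was 31.6% and 49.8%, and per kilobase of the median coding transcript 31.4% and 49.6%. Which form was higher in L1 therefore depends on the length used.

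**Figure D2:**
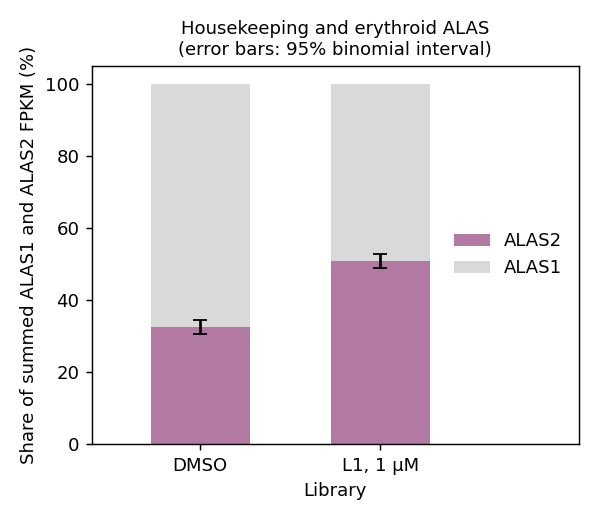
Stacked bars show the share of ALAS2 (purple) and ALAS1 (grey) in their summed FPKM (y axis, percent) in the DMSO and L1 libraries (x axis), with error bars for the 95% binomial interval. The purple part goes from 32.5% in DMSO to 50.8% in L1.

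The cytosolic enzymes that follow differed little, except for UROD. ALAD (ENSG00000148218, chromosome 9 from 113386317 to 113401333), which makes porphobilinogen and holds zinc, had 1520 counts with DMSO and 1205 with L1. Its FPKM was 9.67 in DMSO and 8.89 in L1, and the log2 ratio was -0.12 (95% interval -0.23 to -0.01). As for ALAS1, the interval included 0 with total counts (-0.18 to 0.04) and with upper quartile factors (-0.19 to 0.03). UROS (ENSG00000188690, chromosome 10 from 125784980 to 125823285), which closes the porphyrin ring, had 2315 counts with DMSO and 2057 with L1. Its FPKM was 7.66 and 7.89, respectively, and the interval of its log2 ratio, from -0.04 to 0.13, included 0, while with total counts it ran from 0.0059 to 0.18.

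UROD (ENSG00000126088, chromosome 1 from 45012147 to 45015575), which removes carboxyl groups from uroporphyrinogen, had the highest FPKM of the 8 enzymes in both libraries, 74.0 in DMSO and 58.5 in L1. It had 9476 counts with DMSO and 6464 with L1. The level intervals, from 72.5 to 75.5 in DMSO and from 57.1 to 59.9 in L1, did not overlap. The log2 ratio was -0.34 (95% interval -0.38 to -0.29), the lowest of the 8, and it was -0.29 with total counts. Of all genes kept 21.3% had a lower log2 ratio than UROD, and of the 8828 genes with at least 500 counts 16.5% did.

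Of the late mitochondrial enzymes, CPOX was higher in the L1 library. CPOX (ENSG00000080819, chromosome 3 from 98579446 to 98593723), which acts between the mitochondrial membranes and makes protoporphyrinogen, had 4252 counts with DMSO and 4380 with L1, the only member with more raw counts in L1 besides ALAS2. Its FPKM was 42.4 in DMSO (95% interval 41.1 to 43.7) and 50.6 in L1 (49.1 to 52.1). The log2 ratio was 0.26, with an interval from 0.19 to 0.32, and 27.5% of all genes kept and 16.8% of those with at least 500 counts had a higher one. Of the 31-base words of CPOX transcripts 4.12% also occur in another gene, and AC021660.3, whose exons overlap CPOX by 163 bases on the same strand, had 0 counts in both libraries.

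The gap between UROD and CPOX, which encode successive enzymes, was narrower in the L1 library. CPOX was at 0.573 times the FPKM of UROD in DMSO and at 0.865 times in L1, and at 0.190 and 0.288 times per kilobase of the median coding transcript (GENCODE basic set). The ratio of CPOX to UROD counts was 1.51 times as high in L1 (95% interval 1.43 to 1.59), a difference that depends neither on the scaling of the libraries nor on the lengths.

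PPOX (ENSG00000143224, chromosome 1 from 161166410 to 161178013), which oxidises protoporphyrinogen to protoporphyrin, had the lowest FPKM of the 8, 3.65 in DMSO and 3.23 in L1. It had 548 counts with DMSO and 419 with L1, and the interval of its log2 ratio, from -0.36 to 0.01, included 0. Its exons overlap those of B4GALT3 on the opposite strand by 1118 bases, and the strand setting of the counting is not given in the sources used here. B4GALT3 had 791 counts with DMSO and 976 with L1, a log2 ratio of 0.52. How many of the counts of either gene came from the shared bases cannot be read from the table, so the value of PPOX is uncertain. With DESeq2 size factors its interval lay below 0, from -0.39 to -0.02.

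FECH (ENSG00000066926, chromosome 18 from 57548283 to 57586772), the ferrochelatase that inserts iron into protoporphyrin and carries an iron-sulfur cluster, had 2148 counts with DMSO and 1847 with L1. Its FPKM was 6.07 in DMSO and 6.05 in L1. The log2 ratio of -0.0047, with an interval from -0.10 to 0.09, was the closest to 0 of the 8. The ratio of FECH to ALAS2 counts in L1 was 0.508 times that in DMSO, whichever length is used. Which of the pair was higher depends on the length, since the FPKM of FECH implied 11054 bases while its annotated exons cover 4473. By FPKM, FECH was at 0.603 times the level of ALAS2 in DMSO and at 0.307 times in L1. Per kilobase of all annotated exons it was at 1.56 and 0.795 times, and per kilobase of the median coding transcript at 1.99 and 1.01 times.

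**Figure D3:**
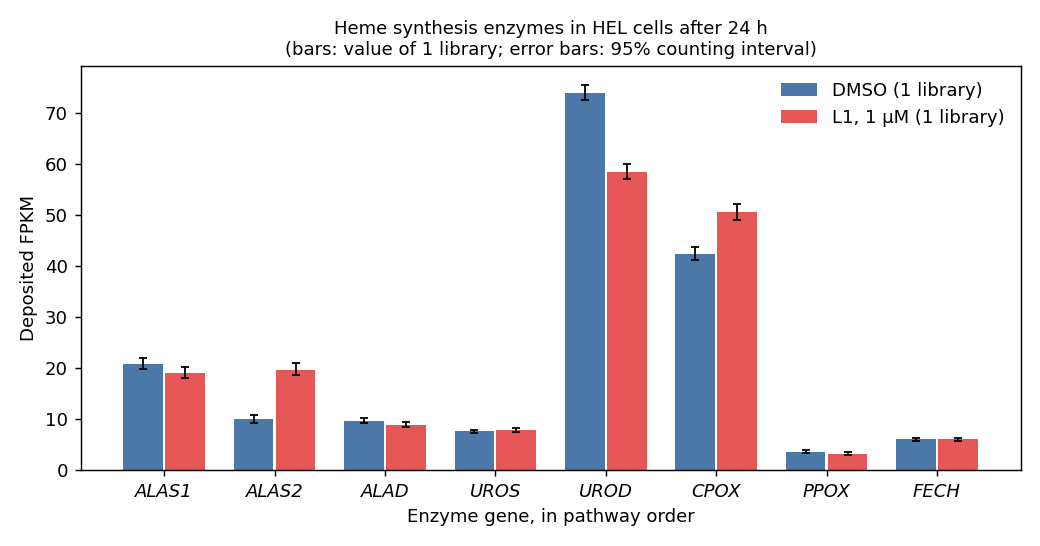
Bars give the deposited FPKM (y axis) of each enzyme in pathway order (x axis) in the DMSO library (blue) and the L1 library (red), with error bars for the 95% counting interval. UROD and CPOX are the tallest in both libraries, and ALAS2 goes from 10.1 to 19.7 while ALAS1 is at 20.9 and 19.1.

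Summed over the 8 enzymes, the FPKM was 174 in both libraries, and the log2 ratio of the summed counts was -0.05 (95% interval -0.08 to -0.02). The composition of the sum differed. UROD made up 42.4% of it in DMSO and 33.6% in L1, CPOX 24.3% and 29.1%, and ALAS2 5.77% and 11.3%. These shares rest on the lengths behind the FPKM. Per kilobase of the median coding transcript UROD made up 56.4% and 48.6%, CPOX 10.7% and 14.0%, and ALAS2 2.36% and 5.05%, so each share differed between the libraries in the same direction. Without ALAS2 the sum was 164 in DMSO and 154 in L1, and the median log2 ratio of the 7 enzymes left was -0.12.

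By deposited FPKM the order in the DMSO library was UROD, CPOX, ALAS1, ALAS2, ALAD, UROS, FECH and PPOX, and the intervals of neighbours overlapped for ALAS2 and ALAD. In the L1 library ALAS2 stood just ahead of ALAS1, with overlapping intervals, and the rest of the order was as in DMSO. The order depends on the gene length used. The FPKM of UROS implied a length of 9442 bases and that of FECH 11054 bases, whereas the median coding transcript in the GENCODE basic set is 1279 bases for UROS and 3189.5 bases for FECH. Per kilobase of the median coding transcript UROD was still the first in both libraries, at 252 in DMSO and 200 in L1 (TMM-scaled CPM per kilobase), followed by UROS at 56.6 and 58.3 and then CPOX at 48.1 and 57.4. On this scale ALAS2 was the lowest of the 8 in DMSO, at 10.6, and the sixth in L1, at 20.7. A low FPKM of UROS, PPOX or FECH therefore does not show that the enzyme's mRNA was scarce. Nor does a high level per coding transcript show that the mRNA was abundant. Counts from exons outside the coding transcripts, if any, are then divided by too short a length, which would raise the value.

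**Figure D4:**
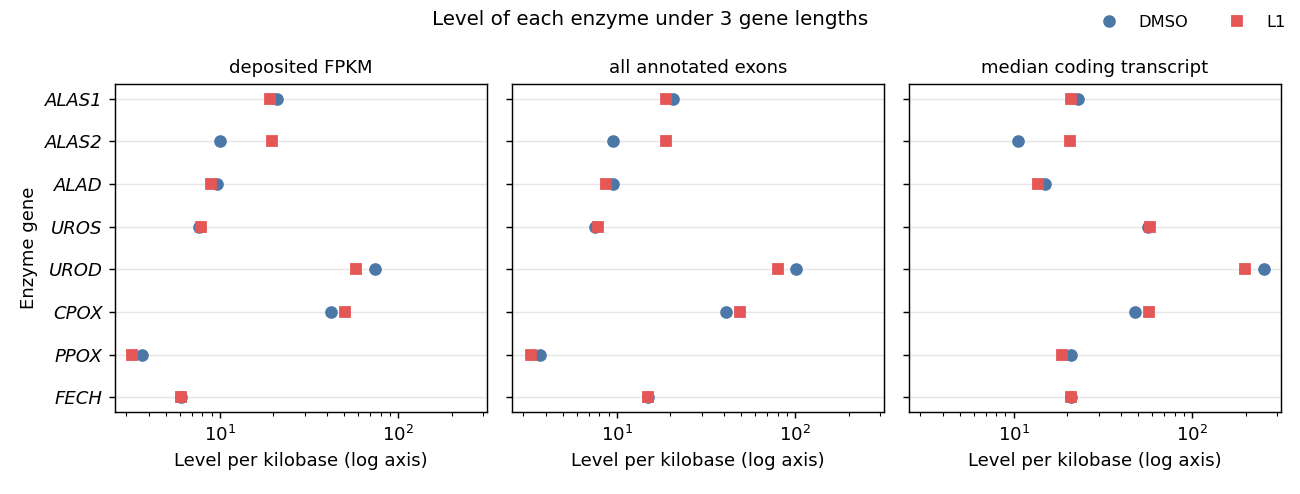
Levels per kilobase (x axis, logarithmic) of the 8 enzymes (y axis) are shown for DMSO (blue circles) and L1 (red squares) with the deposited FPKM, the length of all annotated exons and the median coding transcript. UROD lies farthest to the right in each panel, while UROS goes from 7.66 in DMSO by FPKM to 56.6 by coding transcript.

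Genes around the pathway were read from lists of general knowledge, each with its count and median beside those of all 18123 genes given above. Of 8 genes for substrate supply and turnover of ALAS, 0 passed 2-fold, and the median log2 ratio was 0.03. SLC25A38, a mitochondrial carrier needed for heme synthesis, was at -0.30, and SLC25A39, a mitochondrial glutathione carrier, at 0.05. SUCLG2, the GTP-forming subunit of succinyl-CoA synthetase, was the lowest at -0.84, from 807 counts to 390. LONP1, a mitochondrial protease, was at 0.08. The SUCLG2 interval, from -1.01 to -0.66, was the only one of these 4 to reach 2-fold at its lower bound.

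Among 8 genes of mitochondrial iron and porphyrin transport 0 passed 2-fold and the median was -0.0024, with genes on both sides. TMEM14C, which moves protoporphyrinogen into the mitochondrial matrix, had 1209 counts with DMSO and 1671 with L1 (log2 ratio 0.68, interval 0.57 to 0.79). ABCB6, a porphyrin transporter, was at 0.60. The iron carrier SLC25A28 was at -0.45. Of 11 genes of iron-sulfur cluster assembly, on which FECH depends, 0 passed 2-fold and the median was 0.16. The members farthest from 0 were FDX2 (0.66), HSCB (0.32), ISCU (0.23) and GLRX5 (0.23), each with an interval above 0.

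Of 10 genes of heme transport and breakdown 2 were at least 2-fold higher, 1 was at least 2-fold lower, and the median was 0.14. HMOX1, the inducible heme oxygenase that opens the heme ring, had 58 counts with DMSO and 176 with L1, a log2 ratio of 1.81 (95% interval 1.38 to 2.27). ABCG2, which exports porphyrins, had 99 and 209 counts, a log2 ratio of 1.29. Both were low in level, with an FPKM in L1 of 2.78 for HMOX1 and 1.36 for ABCG2. FLVCR2 had 17 counts with DMSO and 6 with L1, and its interval from -2.92 to 0.12 included 0. BLVRB, a biliverdin reductase, was at 0.33 and the heme transporter SLC48A1 at 0.18.

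Of 13 regulators of heme synthesis 12 passed the minimum count, 0 were at least 2-fold higher and 1 was at least 2-fold lower, with a median of -0.03. PPARGC1A, a coactivator of ALAS1 in liver, had 0 counts in both libraries. NR1D2, a nuclear receptor that binds heme, had 515 counts with DMSO and 192 with L1 (log2 ratio -1.21). NFE2L2 was at 0.52 and NFE2 at 0.45, while the erythroid factor TAL1 was at -0.50. GATA1 had 6469 counts with DMSO and 5923 with L1, a log2 ratio of 0.09 (interval 0.03 to 0.14). KLF1 had 3519 counts with DMSO and 2864 with L1, a log2 ratio of -0.08 (interval -0.16 to -0.01). GATA1 and KLF1 were chosen for mention after their values were seen, because GATA and CACCC elements were searched for in the promoters. Matches to the GATA search lay in windows of ALAS2, CPOX, ALAD and PPOX. Binding of GATA1 or KLF1 to any of the windows was not tested.

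Of 13 heme proteins 6 were at least 2-fold higher, 0 were at least 2-fold lower, and the median was 0.39. The globins HBA1 (1.15), HBA2 (1.16), HBG1 (1.78), HBE1 (1.62) and HBZ (1.80) were in this group, with CYB5B (1.53), a mitochondrial cytochrome. HBZ had 19 counts with DMSO and 57 with L1. HBG2, named here because it is nearly identical to HBG1, was at 0.22. How reads were divided between such copies is not given in the sources used here. The single values of HBA1, HBA2, HBG1 and HBG2, and with them the number of heme proteins past 2-fold, are therefore uncertain. Among the enzymes, ALAS2, which serves the heme of these globins, was at 0.97, CPOX at 0.26 and UROD at -0.34. ALAS1, ALAD, UROS, PPOX and FECH lay between -0.17 and 0.04. A link between the enzymes and the globins was not tested.

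Few markers of the lineages that HEL cells can show passed 2-fold. Of the 8 erythroid markers with enough counts 7 had a log2 ratio above 0, beside 49.6% of all genes kept, 1 was at least 2-fold higher, and the median was 0.30. These 7 include ANK1 at 0.0050 (interval -0.04 to 0.05) and EPOR at 0.15 (interval -0.06 to 0.37), whose intervals include 0. The glycophorin GYPB was at 1.10 and EPB42, a protein of the red cell membrane, at 0.44, while the abundant GYPC was at -0.32, and the summed level of the list was 1129 CPM in DMSO and 1211 in L1. SLC4A1 had 0 and 8 counts. Of the 9 megakaryocyte markers with enough counts 2 were above 0, again beside 49.6% of all genes kept, and 7 were below 0. Of these 9, 1 was at least 2-fold lower, and the median was -0.63. The 7 include PPBP, with 17 counts in DMSO and 8 in L1 and an interval from -2.30 to 0.42. Nothing is read from the numbers of markers on either side of 0 or past 2-fold. The platelet receptor subunits GP1BB (-1.08) and ITGB3 (-0.73) were the lowest of those with at least 100 counts and TUBB1 the highest (0.38). ITGA2B, the most abundant marker of the list, was at 0.03, and the summed level was 1975 CPM in DMSO and 1748 in L1. PF4 had 0 counts in both libraries. GYPC, ANK1, EPOR, ITGA2B and PPBP were chosen for mention after their values were seen. Of the 3 lymphoid and monocyte markers with enough counts 0 were at least 2-fold higher and 1 was at least 2-fold lower, with a median of -0.68. CSF1R had 36 counts with DMSO and 2 with L1 and CD79A had 113 and 60. In bulk RNA a different mix of cells and a different level per cell cannot be told apart, and the part of these markers in the values of the enzymes was not tested.

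**Figure D5:**
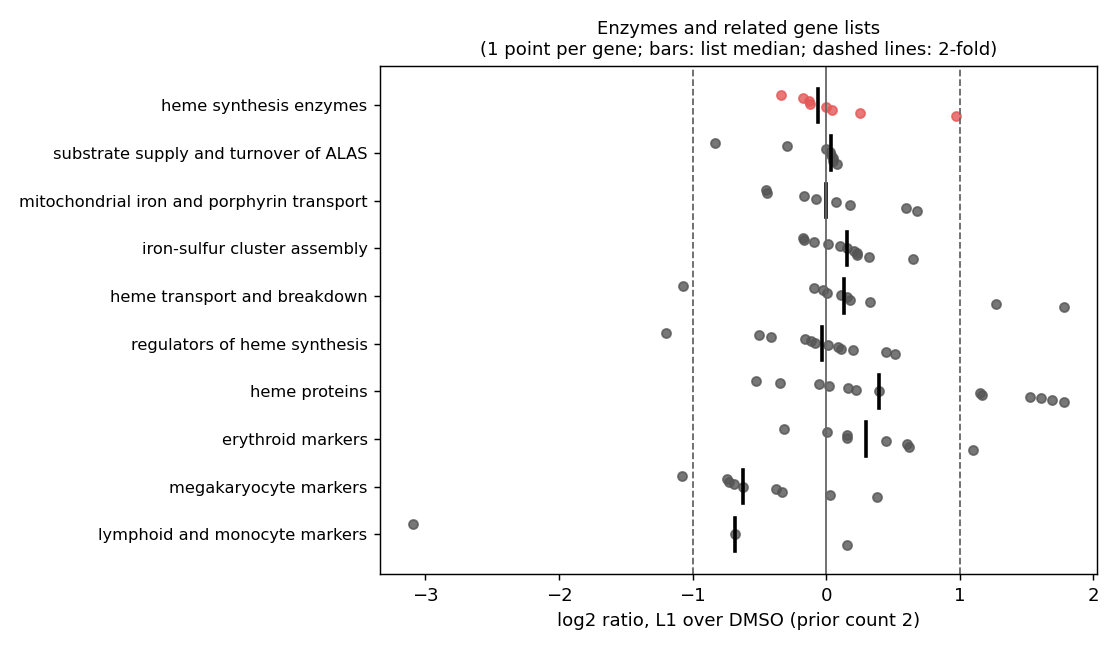
Each point is 1 gene with at least 10 counts in 1 library, placed by its log2 ratio of L1 over DMSO (x axis, prior count of 2) in its list (y axis), with bars for list medians and dashed lines at 2-fold. The enzymes (red) cluster near 0 apart from ALAS2 at 0.97, and the megakaryocyte markers have a median of -0.63. The heme proteins reach 1.78 with HBG1, a value that is uncertain because HBG2 (0.22) is nearly identical.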

How the data were processed

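Gene expression was measured by sequencing of mRNA in 1 library per condition. The authors deposited raw read counts per Ensembl gene and FPKM values for the genes they kept. The submitters' processing notes name fastp 2.0, HISAT2 2.1.0, StringTie and hg38, while the annotation and the counting settings are not given in the sources used here. TMM factors from edgeR 4.0.16 (R 4.3.3) put the effective size of the DMSO library at 1.16 times that of L1, which is also the ratio contained in the deposited FPKM values. One row of the FPKM tables names no gene and was left out. For medians and counts of genes, 2 was added to the scaled counts and genes had to reach 10 counts in 1 library; values of single genes had nothing added. DESeq2 1.42.0 gave alternative size factors. Other steps used Python 3.11.15 with scipy 1.17.1. The log2 ratio, its interval and the 2-fold rule were tested on a simulated pair of libraries that held counting error only.

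The members and the lists were chosen with earlier results of these data known. Named genes were the 8 enzymes and, in each other list, up to 4 genes with at least 100 counts that lay farthest from 0, with each gene past 2-fold. For a few of them no single value is given here. Positions and lengths came from GENCODE release 29, promoters from RefSeq. Scalings, prior counts, minimum counts, thresholds and FPKM were varied. Per-length levels by GENCODE lengths were added after the data were seen.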

Additional observations from a re-analysis of the deposited data

How the results depend on the processing

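No paired analysis was possible because DMSO and L1 were each sequenced as 1 library, and no replicate could be left out. Of 40 log2 ratios of the 8 enzymes under other scalings and FPKM, 39 stayed within the counting interval and 1 moved out of it, UROD to -0.29 with total counts. None changed sign where the interval excluded 0, while FECH ran from -0.04 to 0.04 over the scalings. The deposited FPKM contain the same library ratio as TMM, so their ratios equal the main values by construction. With 1 added to the FPKM, the ratios differ from the main values only through that 1. Only the other scalings are therefore separate checks among the 40. The intervals of ALAS1 and ALAD included 0 with total counts and with upper quartile factors, that of UROS lay above 0 with total counts, and that of PPOX below 0 with DESeq2 size factors. The median of the enzymes stayed between -0.09 and -0.01. The number of enzymes at least 2-fold higher was 1, ALAS2, with total counts, with upper quartile factors and at 1.5-fold, and 0 otherwise. The share of ALAS2 in the ALAS sum, with counts not divided by length, was 28.0% in DMSO and 45.5% in L1. Over all genes the numbers at least 2-fold higher and lower were 1290 and 876 of 18123. They were 407 and 361 of 13924 with deposited FPKM, and 3544 and 1811 of 27464 with no minimum count. With at least 100 counts they were 387 and 361 of 12365. The sets of genes differ, so these numbers do not compare directly. The FPKM counts rest on 13924 genes and on no prior count, so both choices changed there. Depth limits PPOX most, with 419 counts in L1.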
